A study of Mus musculus with 9 samples.

Results

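Endoplasmic reticulum stress genes were followed in peritoneal exudate cells of diabetic and control mice. The group holds 10 genes, chosen by name from the 41096 genes of the deposited table. They are the stress sensors Eif2ak3, Ern1 and Atf6, the transcription factors Atf4, Ddit3 and Xbp1, and the reticulum chaperones Hspa5, Hsp90b1, Calr and Pdia4. All 10 had 1 row each and all passed the filter on low values.

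The samples were 5 control and 4 diabetic exudates from APOE-/- mice, a strain prone to atherosclerosis, so the controls lacked Apoe as well. From 8 weeks of age the diabetic mice were injected into the peritoneum with streptozotocin (40 mg/kg, daily for 5 days), which destroys insulin-producing cells, and the controls with citrate buffer. Both groups were then given a western diet for 8 weeks. Thioglycollate (1.5 mL at 3%), an irritant that recruits leukocytes, was injected into the peritoneal cavity of every mouse, and 3 days later the cells were washed out with no sorting or adherence step named. The labels call them peritoneal macrophages. They do not give the sex of the mice or say whether a sample came from 1 mouse or several, so the tests measure the spread between these samples.

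The unfolded protein response restores protein folding when unfolded proteins build up in the endoplasmic reticulum. PERK (Eif2ak3) phosphorylates the translation factor eIF2alpha, which slows protein synthesis and favours translation of ATF4, an activator of CHOP (Ddit3). IRE1 (Ern1) splices the Xbp1 message into its active form, and ATF6 is cut in the Golgi to release a transcription factor. XBP1 and ATF6 induce chaperones such as BiP (Hspa5), which binds and restrains the sensors when unfolded protein is scarce. In macrophages, cholesterol loading is a known trigger of this response, and CHOP is linked to macrophage death in atherosclerotic plaques. Phosphorylation, splicing, cleavage and translation are not visible in summed RNA per gene.

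Each library held 14156421 to 16169060 reads in genes. Values are FPKM, fragments scaled to gene length and to a size for each library. Levels of different genes can be compared only as far as the table's gene lengths fit the transcripts expressed, which was not tested. That size, inferred from the values, was not the number of reads in genes. It was 14722692 in control 2, with 16169060 reads in genes, and 15599272 in diabetic 4, with 14469116. How it was set is not known from the values. The macrophage genes Cd68 (774 to 1442 FPKM), Csf1r (189 to 356 FPKM) and Adgre1 (185 to 310.2 FPKM) were high in all 9 samples, whereas the row named Itgam, which encodes the integrin CD11b, stood at 0.0583 to 0.246 FPKM. Whether that row's gene model stands for the usual CD11b transcript was not tested, so its level is not read as absence of CD11b. On the first principal component, with 36.0% of the variance, diabetic 3 (1.4) lay between the control samples (-23.5 to -11.2) and the other diabetic samples (20.9 to 30.5). All 12 T cell markers passed as higher in diabetic samples. Their summed level was 44.4 to 72.5 FPKM in control samples, 289, 517 and 465 FPKM in diabetic 1, 2 and 4, and 133 FPKM in diabetic 3. None of the 12 was at 0 in any sample. In such bulk samples, fewer cells of a type and less RNA per cell cannot be told apart.

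None of the 10 stress genes passed in the comparison of diabetic with control samples (limma, adjusted p below 0.05), against 533 of the 11193 genes tested (4.76%; 2.68% higher and 2.08% lower). At an unadjusted p under 0.05 there were 3, Hsp90b1, Eif2ak3 and Atf4, where 22.4% of all genes tested were under it. With voom on reads recovered from the FPKM values, 1 stress gene passed, Hsp90b1, against 5.90% of all genes. The groups did not overlap for 1 of the 10, again Hsp90b1, against 9.42% of all genes (4.82% with every diabetic sample above the controls and 4.60% with every one below). All fold changes were taken between log2(FPKM + 1) values, and the added 1 shrinks them for low genes. The 10 had a median log2 fold change of -0.054, with 6 negative, beside a median of -0.013 and 52.3% negative over all genes tested. Diabetic 3 bore on this count. Without it 3 of the 10 passed, Eif2ak3 and Atf4 as higher and Hsp90b1 as lower, against 10.2% of all genes.

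**Figure D1:**
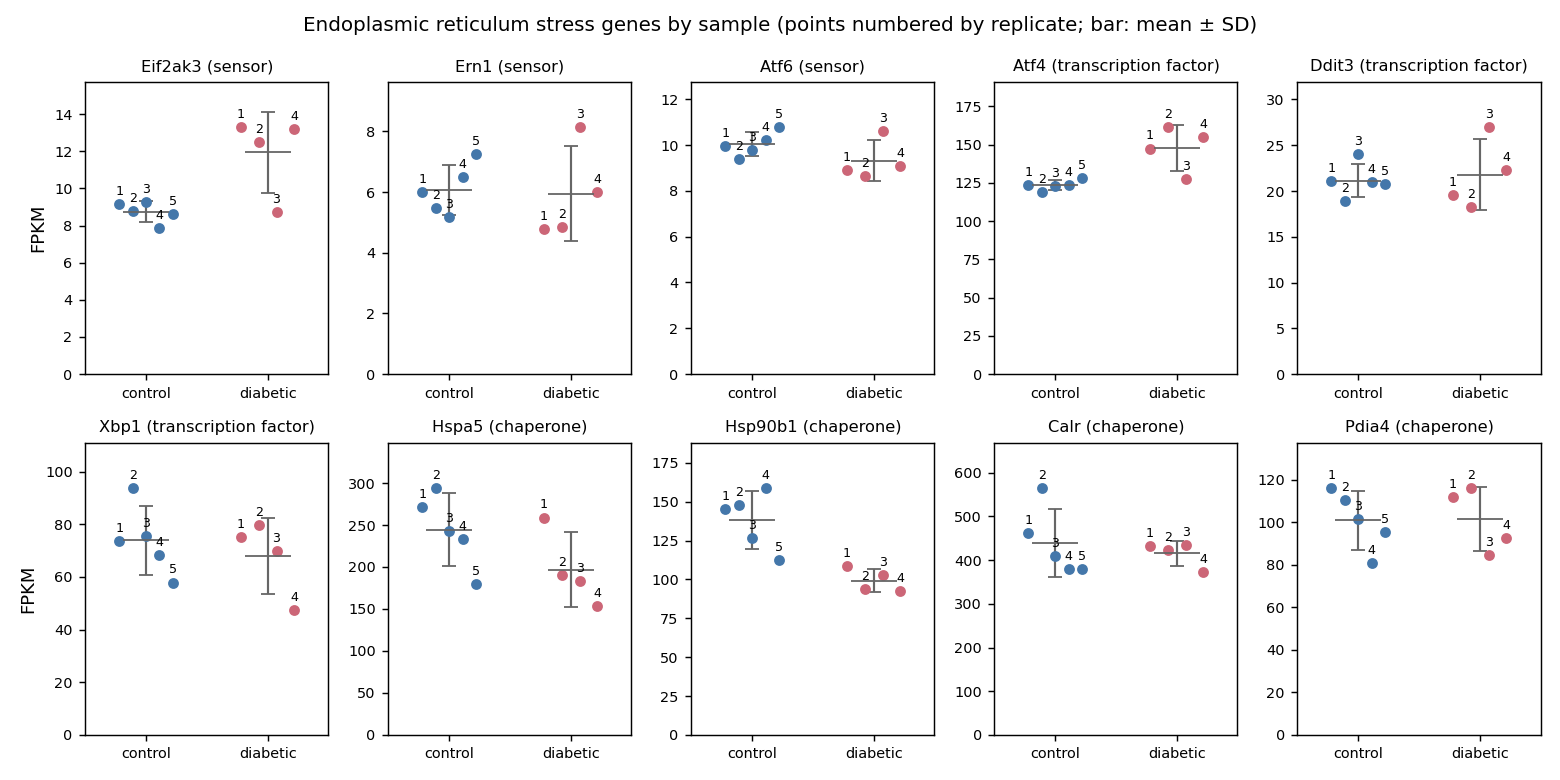
FPKM of the 10 stress genes in 5 control and 4 diabetic samples, 1 panel per gene, each axis from 0. Points are samples numbered by replicate, and the bars show the mean ± SD. Only the Hsp90b1 groups are fully apart, and diabetic 3 sits among the controls for Eif2ak3.

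By FPKM, with the table's gene lengths, Calr was the highest (374 to 566 FPKM over the 9 samples) and Ern1 the lowest (4.79 to 8.15 FPKM). Ordered by the mean over samples, the genes ran Calr, Hspa5, Atf4, Hsp90b1, Pdia4, Xbp1, Ddit3, Eif2ak3, Atf6 and Ern1. The ranges were apart at 4 steps of this order, namely Calr above Hspa5, Xbp1 above Ddit3, Ddit3 above Eif2ak3 and Atf6 above Ern1. Hspa5 exceeded Atf4 in 8 of 9 samples and Pdia4 exceeded Xbp1 in all 9. The other neighbours were ordered differently in the groups. Atf4 exceeded Hsp90b1 in 1 of 5 control samples and in 4 of 4 diabetic samples. Hsp90b1 exceeded Pdia4 in 5 of 5 control samples and in 1 of 4 diabetic samples. Eif2ak3 exceeded Atf6 in 0 of 5 control samples and in 3 of 4 diabetic samples, so its place above Atf6 by the mean holds in diabetic samples other than diabetic 3. These shifts restate the differences of the single genes and were not tested on their own. Read numbers behind the values ran from 462 for Ddit3 to 24005 for Calr.

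Among the sensors, PERK had the widest gap. Eif2ak3 (chromosome 6, 73159737 to 73226218 in the table's own coordinates) stood at 9.16, 8.79, 9.26, 7.85 and 8.64 FPKM in control 1 to 5. In diabetic 1 to 4 it stood at 13.3, 12.5, 8.72 and 13.2 FPKM. Diabetic 1, 2 and 4 were above every control sample, while diabetic 3 lay inside the control range. The means were 8.74 ± 0.560 (SD, n = 5) and 11.9 ± 2.18 FPKM (SD, n = 4), a log2 fold change of 0.39 with a 95% interval of 0.12 to 0.67 (adjusted p = 0.094). Without diabetic 3 the value was 0.53 (SE 0.09) and passed (adjusted p = 0.0070), and over the 19 alternatives the adjusted p ran from 0.0070 to 0.24. The sample that stayed low in Eif2ak3 is also the diabetic sample with the lowest summed T cell markers, and the part of T cell RNA in this difference was not tested. A snoRNA row inside the gene, Gm23346, held at most 51 reads, beside 664 to 1262 for Eif2ak3.

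Ern1, the kinase and RNase IRE1, had 6.0, 5.46, 5.18, 6.48 and 7.26 FPKM in control 1 to 5. The diabetic samples had 4.79, 4.86, 8.15 and 6.0 FPKM. Diabetic 1 and 2 were the lowest of the 9 samples and diabetic 3 the highest. Its log2 fold change was -0.044 with a 95% interval of -0.37 to 0.28 (adjusted p = 0.89). The direction turned with single libraries, from -0.19 without diabetic 3 to 0.035 without diabetic 1, and it was positive also without diabetic 2 or control 5.

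Atf6, the sensor released by proteolysis, had 9.98, 9.38, 9.79, 10.2 and 10.8 FPKM in control 1 to 5. The diabetic samples had 8.89, 8.66, 10.6 and 9.09 FPKM. Diabetic 1, 2 and 4 were below every control sample and diabetic 3 was above all but control 5. The log2 fold change was -0.10 (95% interval -0.30 to 0.10, adjusted p = 0.55), and -0.16 without diabetic 3 (adjusted p = 0.28). In diabetic 1, 2 and 4 the sensors thus stood on opposite sides of the control range, Eif2ak3 above it and Atf6 below it.

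Atf4, whose protein activates amino acid and stress genes, was the most even member in control samples, at 124, 119, 123, 123 and 128 FPKM (coefficient of variation 2.63%). The diabetic samples held 147, 162, 127 and 155 FPKM. All but diabetic 3 exceeded every control sample, and diabetic 3 lay just under control 5. The log2 fold change was 0.25 (SE 0.10, 95% interval 0.036 to 0.47) and did not pass (adjusted p = 0.16). Without diabetic 3 it was 0.32 and passed (adjusted p = 0.049), the 1 alternative of 19 in which it did.

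Ddit3, the factor CHOP that ATF4 induces, did not follow Atf4. It had 21.1, 18.9, 24.0, 21.0 and 20.7 FPKM in control 1 to 5, and 19.5, 18.3, 27.0 and 22.3 FPKM in diabetic 1 to 4. Diabetic 2, the highest sample for Atf4, was the lowest for Ddit3, and diabetic 3 was the highest. Between the groups it differed by 0.030 on the log2 scale (95% interval -0.24 to 0.30, adjusted p = 0.91), and the sign turned without diabetic 3 (-0.074) or control 2 (-0.0069). Ddit3 shares 68 bases with Mars on the other strand, and the strand setting of the counting is not given in the sources used here.

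Xbp1, the target of IRE1 splicing, had 73.5, 94.0, 75.5, 68.5 and 57.9 FPKM in control 1 to 5. In diabetic 1 to 4 it had 75.0, 79.9, 70.0 and 47.3 FPKM. Control 2 was the highest and diabetic 4 the lowest, and the other diabetic samples lay within the control range. The log2 fold change was -0.13 (95% interval -0.51 to 0.26, adjusted p = 0.72), and 0.036 without diabetic 4. Plasma cells, which depend on Xbp1, were checked by 12 markers, Xbp1 and Derl3 among them. Jchain was at 0.324 to 5.06 FPKM in control samples and at 24.5, 2.56, 1.86 and 4.18 FPKM in diabetic 1 to 4, and Tnfrsf17 was under 1 FPKM in all 9. The summed markers, mostly Ighm and Igkc, ran from 1583 to 2835 FPKM in control and from 2599 to 5023 FPKM in diabetic samples, and their part in the Xbp1 values was not tested. Of the 10 plasma cell markers tested, 1 passed as higher in diabetic samples and 0 as lower, beside 2.68% higher and 2.08% lower over all genes. Their median log2 fold change was 0.048. Summed B cell markers ran from 539.6 to 1133 FPKM in control and from 768 to 1900.5 FPKM in diabetic samples. The part of B cell RNA in the plasma cell sum was not tested, so that sum is not read as a rise of plasma cells.

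**Figure D2:**
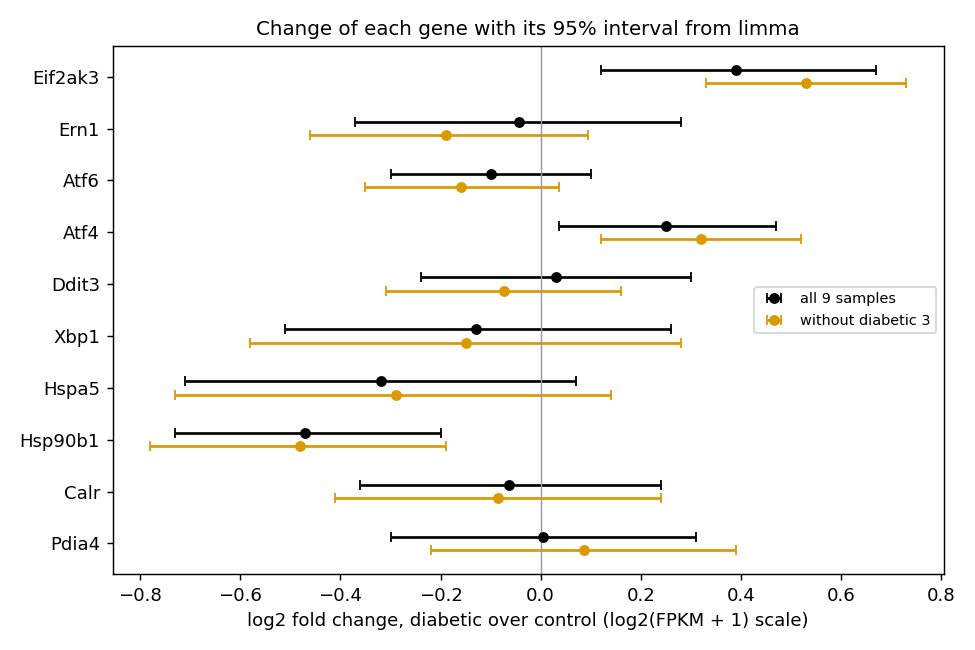
Log2 fold change of each stress gene, diabetic over control, on the log2(FPKM + 1) scale, with the 95% interval from limma. Black points use all 9 samples and orange points leave out diabetic 3. Eif2ak3 and Atf4 lie to the right of 0 and Hsp90b1 to the left in both fits, while the other intervals include 0.

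The chaperones are the genes for which a shared promoter element is best known, so their promoters were read first. The endoplasmic reticulum stress element, to which ATF6 binds together with the factor NF-Y, has the letters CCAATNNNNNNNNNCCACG. It was searched on both strands in the 250 bases before the RefSeq start of each gene (GRCm38.p6), and its outer letters contain the CCAAT box and the CCACG letters that were also searched alone. Of the 10 stress genes 9 were matched in the promoter table. The full element was found in Hspa5, Hsp90b1 and Calr, 3 of 9, beside 0.122% of 27025 promoters of the same length. Because the element is best known from chaperone promoters, this share is not read as an enrichment. Pdia4 is shown beside these 3 because it is a chaperone of the same compartment without a match. The windows lie at chr2:34771840-34772089 (plus strand), chr10:86705445-86705694 (minus strand), chr8:84846932-84847181 (minus strand) and chr6:47813513-47813762 (minus strand), and are printed 5′ to 3′ along the gene with the fixed letters of each element in capitals.
Hspa5: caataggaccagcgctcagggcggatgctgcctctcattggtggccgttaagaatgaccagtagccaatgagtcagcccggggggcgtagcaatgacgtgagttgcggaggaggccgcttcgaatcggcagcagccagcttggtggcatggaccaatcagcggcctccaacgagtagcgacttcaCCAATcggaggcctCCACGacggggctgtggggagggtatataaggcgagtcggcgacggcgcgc
Hsp90b1: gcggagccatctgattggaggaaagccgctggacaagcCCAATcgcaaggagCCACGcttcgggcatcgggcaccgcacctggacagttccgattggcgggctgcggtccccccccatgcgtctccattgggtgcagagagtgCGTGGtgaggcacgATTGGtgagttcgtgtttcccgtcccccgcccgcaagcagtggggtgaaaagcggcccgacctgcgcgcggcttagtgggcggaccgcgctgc
Calr: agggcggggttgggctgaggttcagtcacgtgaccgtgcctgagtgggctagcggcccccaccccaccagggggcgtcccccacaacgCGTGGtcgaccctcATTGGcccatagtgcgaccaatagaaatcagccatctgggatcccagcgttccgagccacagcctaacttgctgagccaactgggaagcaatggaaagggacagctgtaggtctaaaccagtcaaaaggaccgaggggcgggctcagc
Pdia4: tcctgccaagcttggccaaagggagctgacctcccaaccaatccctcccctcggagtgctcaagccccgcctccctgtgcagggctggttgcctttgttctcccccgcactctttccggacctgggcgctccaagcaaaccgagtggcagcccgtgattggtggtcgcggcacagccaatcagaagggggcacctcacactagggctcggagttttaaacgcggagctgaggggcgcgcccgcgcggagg

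Hspa5 held 1 element in the forward direction, from 65 to 47 bases before the start. Hsp90b1 held 2, a forward one from 212 to 194 and a reverse one from 107 to 89 bases before the start. Calr held 1 in reverse, from 162 to 144 bases before the start. Pdia4 had 3 CCAAT boxes, which 34.5% of promoters also had at least once, and no CCACG, found in 28.2% of promoters. The C/EBP-ATF element TGATGNAA matched in none of the 9, beside 3.53% of promoters. Eif2ak3 held 6 CCAAT boxes. A match is a run of letters, and no binding was measured.

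Hsp90b1 encodes GRP94, the HSP90 of the reticulum that folds Toll-like receptors and integrins. It was the lowest of the 10 in fold change (chromosome 10, 90638209 to 90655281 in the table's own coordinates). Control 1 to 5 stood at 145, 148, 127, 159 and 113 FPKM, and diabetic 1 to 4 at 108, 93.6, 103 and 92.3 FPKM. Every diabetic sample was below every control sample, with diabetic 1 and control 5 nearest each other. The means were 138 ± 18.4 (SD, n = 5) and 99.3 ± 7.69 FPKM (SD, n = 4), a log2 fold change of -0.47 with a 95% interval of -0.73 to -0.20. The adjusted p of 0.052 stood just outside the threshold, and it passed in 7 of 19 alternatives (adjusted p = 0.033 to 0.15 over all of them), with a fold change of -0.54 to -0.41. Without control 5 the adjusted p was 0.039, in a fit where 3.29% of all genes passed, and without diabetic 3 it was 0.044. The difference was nearly the same with and without diabetic 3 (-0.48 without it), unlike that of Eif2ak3. Gm15344, a transcript inside Hsp90b1 on the same strand, held at most 45 reads beside at least 5568 for Hsp90b1.

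Hspa5, the HSP70 chaperone BiP and the standard marker of this response, had 271, 295, 243, 233 and 179.5 FPKM in control 1 to 5. It had 259, 191, 184 and 153 FPKM in diabetic 1 to 4. Diabetic 4 was below every control sample, and the other diabetic samples lay inside the control range. The means were 244 ± 43.5 (SD, n = 5) and 197 ± 44.7 FPKM (SD, n = 4). The log2 fold change of -0.32 (95% interval -0.71 to 0.071, adjusted p = 0.32) stayed negative in all 19 alternatives, between -0.46 and -0.18, and passed in none.

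Calr, the calcium-binding lectin chaperone calreticulin, had 461, 566, 409.9, 379.6 and 379 FPKM in control 1 to 5. The diabetic samples held 433, 423, 435 and 374 FPKM. Control 2 was the highest sample, and the log2 fold change of -0.063 (95% interval -0.36 to 0.24, adjusted p = 0.82) became 0.032 without it. Pdia4, a protein disulfide isomerase also called ERp72, had 116, 110.2, 102, 80.9 and 95.3 FPKM in the control and 112, 116, 84.7 and 92.7 FPKM in diabetic samples. Its groups covered the same range, and the log2 fold change was 0.0055 (95% interval -0.30 to 0.31, adjusted p = 0.99). That interval bounds any difference of Pdia4 but does not show that the groups were alike.

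Samples shared extremes across Xbp1 and chaperones other than Pdia4. Control 2 was the highest sample for Xbp1, Hspa5 and Calr, and diabetic 4 the lowest for Xbp1, Hspa5, Hsp90b1 and Calr. Pdia4 was highest in control 1 and lowest in control 4. The summed level of the 4 chaperones was 994, 1119, 882, 853 and 767 FPKM in control 1 to 5, and 912, 824, 806 and 712 FPKM in diabetic 1 to 4. Diabetic 4 was below all control samples in this sum and the other diabetic samples were not. The size used for scaling was below the reads in genes in control 2, which raises its values, and above them in diabetic 4, which lowers its values. The part of this scaling in the shared extremes and in the sums was not tested. The 9 measured macrophage markers, none of them at 0, summed to 6577 to 9900.3 FPKM in control and 5230.2 to 8778 FPKM in diabetic samples, also highest in control 2 and lowest in diabetic 4, and their part in the chaperone values was not tested. Of the 8 tested, 1 passed as lower in diabetic samples and 0 as higher, beside 2.08% lower and 2.68% higher over all genes. Their median log2 fold change was -0.22.

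**Figure D3:**
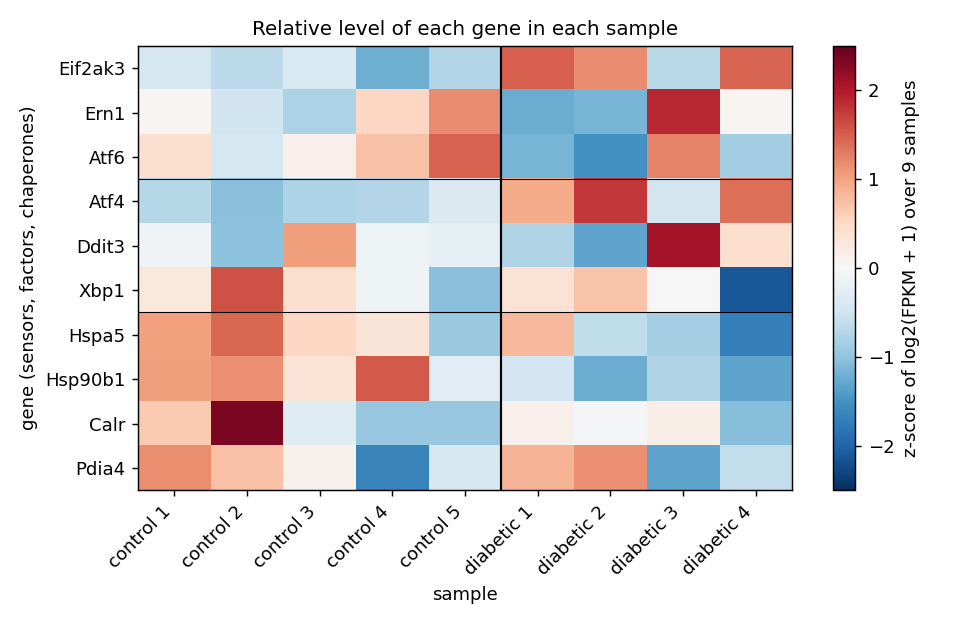
Relative level of each stress gene in each sample, as the z-score of log2(FPKM + 1) over the 9 samples (red high, blue low). The vertical line parts control from diabetic samples, and horizontal lines part sensors, transcription factors and chaperones. Control 2 and diabetic 4 are the extremes for Xbp1, Hspa5 and Calr, and diabetic 3 is high for Ern1, Atf6 and Ddit3.

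The genes with a profile most like that of Hspa5 were sought among 9991 other tested protein-coding genes, by the Euclidean distance between z-scored log2(FPKM + 1) values over the 9 samples. The nearest 5 were Ncoa5 (distance 0.97), Mras (0.98), Trip10 (0.98), Dnajc3 (1.04) and Sdf2l1 (1.08), against a median distance of 4.16. Dnajc3, a reticulum co-chaperone that restrains PERK, and Sdf2l1, a component of reticulum chaperone complexes, are on the list of other reticulum chaperones. Among the 9 other stress genes Xbp1 was nearest to Hspa5 (1.93, rank 230), then Hsp90b1 (2.05, rank 338) and Calr (2.33, rank 666), and Atf4 was farthest (5.27, rank 9027).

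The wider pathway was read through 7 lists, in which 1 gene of 117 tested passed, 0.855% beside 4.76% of all genes tested. Over all genes tested the shares were 4.76% passing, 22.4% with an unadjusted p under 0.05, 52.3% negative and 47.7% positive. Of 22 other reticulum chaperones and folding enzymes 0 passed with limma and 4 had an unadjusted p under 0.05 (18.2%, below the 22.4% of all genes). Their median log2 fold change was -0.064 and 14 were negative, 63.6% beside 52.3% of all genes tested. Ero1lb, an oxidase that drives disulfide bond formation, had 9.92 ± 1.42 (SD, n = 5) against 13.8 ± 2.47 FPKM (SD, n = 4), a log2 fold change of 0.43 (adjusted p = 0.11). It passed without diabetic 3 (0.55, adjusted p = 0.021). Uggt1, the glycoprotein glucosyltransferase that retests folding, had 13.8 ± 1.43 against 11.5 ± 0.985 FPKM (log2 fold change -0.24, adjusted p = 0.18).

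Genes of reticulum-associated degradation, which returns misfolded proteins to the cytosol, had the lowest median of the reticulum lists (-0.13). Of 18 tested 0 passed with limma, 0 had an unadjusted p under 0.05 (22.4% of all genes) and 11 were negative (61.1% beside 52.3%). Ube2g2, a ubiquitin-conjugating enzyme of this route, had 38.6 ± 4.60 (SD, n = 5) against 31.2 ± 7.43 FPKM (SD, n = 4), a log2 fold change of -0.32 (adjusted p = 0.24). Edem1, a mannosidase-like factor, had 45.8 ± 3.86 against 39.1 ± 4.67 FPKM (-0.23, adjusted p = 0.25). Of 21 genes of the translocon, signal peptidase and oligosaccharyl transferase, 0 passed with limma and 2 had an unadjusted p under 0.05 (9.52% beside 22.4%). Their median was -0.034 and 14 were negative (66.7% beside 52.3%). Spcs3, a signal peptidase subunit, had a log2 fold change of -0.28 (adjusted p = 0.15), and Dad1, a subunit of oligosaccharyl transferase, -0.33 (adjusted p = 0.22).

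Downstream of PERK, the eIF2alpha branch (kinases, phosphatase subunits, eIF2 and its exchange factor) had 0 of 13 passing with limma and 1 with an unadjusted p under 0.05 (7.69% beside 22.4% of all genes). Its median log2 fold change was 0.037. Eif2s2, the beta subunit of eIF2, had 4.44 ± 0.963 (SD, n = 5) against 6.19 ± 0.690 FPKM (SD, n = 4), a log2 fold change of 0.41 (adjusted p = 0.096), which passed without control 4 (adjusted p = 0.037). Eif2b1 had a log2 fold change of 0.13 (adjusted p = 0.63). Of 21 ATF4 and CHOP targets 0 passed with limma, 4 had an unadjusted p under 0.05 (19.0% beside 22.4% of all genes), and 11 were positive (52.4% beside 47.7%, median 0.073). Bbc3, the cell death protein PUMA, had 13.8 ± 2.89 against 9.35 ± 2.03 FPKM (log2 fold change -0.52, adjusted p = 0.11). Mthfd2, a mitochondrial folate enzyme, had 7.87 ± 1.44 against 10.4 ± 1.56 FPKM (0.37, adjusted p = 0.15). Without diabetic 3 this list held 1 passing gene of 21 (4.76%), Atf3 as lower, where 10.2% of all genes passed. Without diabetic 1 it held Atf5 as lower, where 2.08% of all genes passed.

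On the list of IRE1 and ATF6 partners, with 11 genes tested, Bcl2 rose, the only passing gene of all 7 lists. The list was drawn up by name, and no link of Bcl2 to IRE1 or ATF6 was tested. That is 9.09% of this list beside 4.76% of all genes tested. An unadjusted p under 0.05 was found for 3 of the 11 (27.3% beside 22.4%). Atf6b had the lowest log2 fold change of the list (-0.35, adjusted p = 0.096 by limma). It passed as lower without diabetic 1, where 2.08% of all genes passed. Bcl2, an inhibitor of apoptosis found on reticulum and mitochondrial membranes and abundant in lymphocytes, had 2.79, 1.38, 2.54, 2.36 and 2.90 FPKM in control 1 to 5. Diabetic 1 to 4 had 5.72, 7.39, 3.35 and 7.46 FPKM. The Bcl2 groups did not overlap, as for 9.42% of all genes tested, and diabetic 3 was the lowest diabetic sample, as it was for the summed T cell markers. The log2 fold change was 1.01 (SE 0.21, adjusted p = 0.025), and the gene passed in 11 of 18 alternatives. Leaving out control 3, control 4, diabetic 1, diabetic 2 or diabetic 4 ended the call (adjusted p = 0.052 to 0.089). Of 9 tested B cell markers 3 rose (Ighd, Fcer2a and Fcmr), and all 10 listed summed to 539.6 to 1133 FPKM in control samples and to 1516, 1808, 768 and 1900.5 FPKM in diabetic 1 to 4. Diabetic 3 was again the lowest diabetic sample. The part of T cell and B cell RNA in the rise of Bcl2 was not tested.

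Chaperones outside the reticulum were read for comparison. Of 11 cytosolic and mitochondrial chaperones 0 passed with limma, 4 had an unadjusted p under 0.05 (36.4% beside 22.4% of all genes) and 9 were negative (81.8% beside 52.3%), with a median log2 fold change of -0.20. Hspa1b, an inducible cytosolic HSP70 and the gene of this list with the lowest log2 fold change, had 80.4, 28.3, 129, 105 and 97.9 FPKM in control 1 to 5, against 35.1, 9.11, 49.9 and 42.7 FPKM in the diabetic samples. Control 2 lay below diabetic 1, 3 and 4, so the groups overlapped (log2 fold change -1.41, SE 0.54, adjusted p = 0.16). Hspa1b has a near-identical copy, Hspa1a, not analysed here, and its reads are uncertain. Dnaja1, an HSP40 co-chaperone, had 42.5 ± 7.26 (SD, n = 5) against 26.7 ± 9.51 FPKM (SD, n = 4), a log2 fold change of -0.71 (adjusted p = 0.11).

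**Figure D4:**
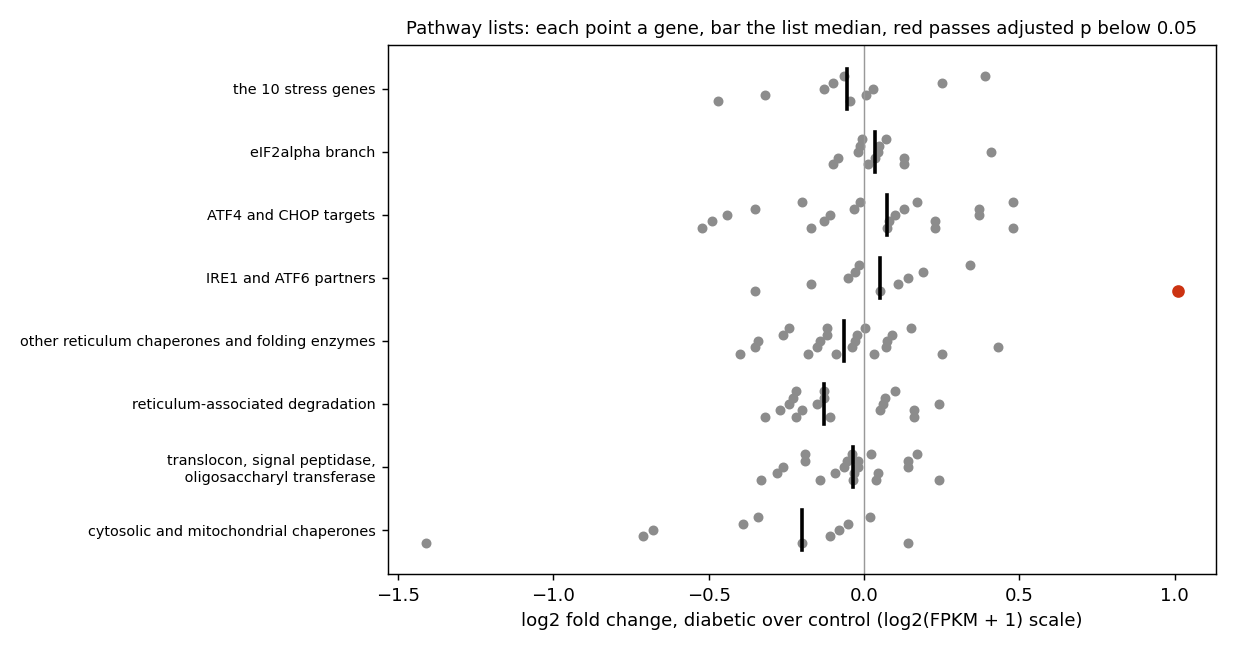
Log2 fold change, diabetic over control, of every tested gene of the 10 stress genes and of 7 pathway lists. Each point is a gene, the black bar is the list median, and red marks a gene with adjusted p below 0.05. Only Bcl2 is red, and the list medians lie between -0.20 and 0.073.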

How the data were processed

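Messenger RNA of 9 samples was profiled, and 1 table was used. The authors deposited FPKM values per gene for 41096 genes, per the file headers, with 9 sample columns matched to samples by title. GRCm38 and mm10 are the builds named in the submitters' processing notes, while the gene identifiers belong to a C57BL/6NJ gene set. Positions are given as the table gives them, apart from promoter windows, which come from RefSeq (GRCm38.p6). No aligner or counter is named in the labels or headers. FPKM times gene length, divided by the value of 1 read inferred for each library from its smallest steps, gave whole reads (100% of values above 0 within 0.05).

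The fit was limma 3.58.1 (R 4.3.3; trend and robust moderation) on log2(FPKM + 1), on genes that reached an FPKM of 1 in 4 or more samples, with group as the only factor, two-sided, with Benjamini-Hochberg adjustment over all genes tested. It was run on simulated data with larger changes than those of the stress genes, which does not show how well it finds changes as small as theirs. Alternatives changed the pseudocount, filter, scaling, moderation, sample weights, value tested (voom), replicate block and the samples included.

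The stress genes and lists were chosen with earlier results of these data known. The rule for named genes takes the 10 stress genes, the 5 profiles nearest Hspa5, and, per list, the passing genes (4 at most, smallest p first) or else the 2 genes of smallest p. Other genes named were chosen after their values were seen. No 2 samples of a group agreed within sampling noise (chi-square per degree of freedom 12.7 to 69.8).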

Additional observations from a re-analysis of the deposited data

Results flagged for a closer look

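In 46 groups of values (23 named genes in control and in diabetic samples) a sample far from the others of its group was found in 2, where chance gives about 1 in 20 groups. Both concern Eif2s2, the beta subunit of eIF2. Control 4 stood at 6.16 FPKM, above the 3.89 to 4.10 FPKM of the other control samples, and diabetic 2 stood at 7.22 FPKM, above the 5.81 to 5.90 FPKM of the other diabetic samples. The gene passed without control 4 and had at least 350 reads in every sample.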

How the results depend on the processing

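The number of genes passing was 533 (300 higher, 233 lower), and it was 183 with no filter on low values, 1304 with array weights, 73 with the replicate block and between 115 (without diabetic 4) and 1126 (without diabetic 3) across leave-one-out fits. Rescaling to a sum of 1e6 moved the split from 56.3% higher to 45.7% higher. Of the 10 stress genes 0 passed, and this became 1 with FPKM of at least 5 in 4 samples (372 of all 7072 genes). It was 1 after rescaling to a sum of 1e6 (558 of all 11193 genes) and 1 with upper quartile scaling (561 of 11193). It was 1 with voom (5.90% of all genes) and 2 with array weights (Eif2ak3 and Hsp90b1, beside 11.7% of all genes). Across leave-one-out fits it was 0 to 3. With the replicate block it was 0. Of the pathway list genes 1 passed, and this became 0 with no filter and 0 with FPKM of at least 5 (a filter that removes Bcl2). It was 5 of 117 with array weights, beside 11.7% of all genes, and 0 to 3 across leave-one-out fits. The cause of these differences was not tested, and leaving 1 sample out also means that fewer samples were fitted. Directions turned only for genes near 0. With the replicate block Ern1 was at 0.013 and Pdia4 at -0.012, Pdia4 was at -0.011 after rescaling to a sum of 1e6, and Ddit3 was at -0.061 with array weights. Across leave-one-out fits, Ern1 ran from -0.19 to 0.035, Ddit3 from -0.074 to 0.11, Xbp1 from -0.21 to 0.036, Calr from -0.11 to 0.032 and Pdia4 from -0.070 to 0.087. Eif2ak3, Atf6, Atf4, Hspa5 and Hsp90b1 kept their sign in all 19 alternatives. The replicate numbers 1 to 4 gave no sign of pairing. Deviations of same-numbered samples correlated between -0.255 and 0.156, and those of other pairs between -0.303 and 0.328. So few pairs cannot show that there was no pairing. The block could use 8 samples. With it Bcl2 no longer passed (adjusted p = 0.095) and Hspa1b passed (adjusted p = 0.028), so the single pathway gene passing was a different one.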

Other observations

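Within the ATF4 and CHOP targets, genes other than Bbc3 and Mthfd2, chosen here after their values were seen, also lay on both sides of 0. Phgdh and Shmt2, enzymes of serine and glycine metabolism, had 7.80 ± 2.81 (SD, n = 5) against 11.4 ± 3.98 FPKM (SD, n = 4) and 16.3 ± 3.70 against 23.0 ± 5.06 FPKM. Both log2 fold changes were 0.48, with adjusted p = 0.38 and 0.17 by limma, and diabetic 3 was the lowest diabetic sample in both (5.58 and 16.3 FPKM). Atf3 and Atf5, transcription factors of the stress response, had 92.4 ± 12.5 against 70.4 ± 25.5 FPKM and 9.09 ± 0.768 against 6.50 ± 2.59 FPKM. Atf3 had a log2 fold change of -0.44 (adjusted p = 0.22) and Atf5 one of -0.49 (adjusted p = 0.16). For Atf3, diabetic 3 (107 FPKM) lay within the control range and the other diabetic samples (49.1 to 67.1 FPKM) below it, so that diabetic 3 stood with the controls as it did for Eif2ak3.

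Over all genes, 33 promoters of the 27025 held the full stress element, and 13 of these genes were tested. The stress genes Hspa5, Hsp90b1 and Calr are among the 13, all with negative values given above, so the counts are not independent of them. None passed with limma (4.76% of all genes tested), 10 had a negative log2 fold change (52.3% of all genes), and the median was -0.18 (-0.013 over all genes). The 13 include Hsp90b1 (-0.47), Pdia6 (-0.34), Hspa5 (-0.32), Canx (-0.26) and Dnajc3 (-0.18), reticulum chaperones and folding enzymes. The other negative genes were Hnrnpa3 (-0.30), which is on none of the lists, Derl3 (-0.24), Syvn1 (-0.13), Calr (-0.063) and Creld2 (-0.028). Creld2 differed widely between diabetic samples (85.2, 70.5, 33.8 and 39.8 FPKM). Pdia6, Canx, Dnajc3, Creld2, Derl3 and Syvn1 were also counted in the pathway lists. The 3 positive genes were Pan2 (0.028), Alg12 (0.085) and Adcy3 (0.11).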
